A study of Mus musculus with 6 samples.

Results

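The cytosolic ribosome is built from a large and a small subunit, each a shell of ribosomal proteins around ribosomal RNA. The mRNAs of these proteins were followed in mouse liver through every array probe that carries the symbol of a cytosolic ribosomal protein gene. Probes were taken by name (Rpl or Rps with a number and an optional a, x, l or y, and Rplp0, Rplp1, Rplp2 and Rpsa), without pseudogenes and without the kinases of ribosomal protein S6. Of 55681 non-control probes 189 carried such a name, for 81 genes. The 176 of them that were well above background on all 6 arrays are the members, and they stand for 77 genes, 46 of the large subunit with 110 probes and 31 of the small subunit with 66. The rule used no difference between the groups.

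The mice were C57BL6/J, an inbred laboratory strain, and whole liver was taken 2 h after an oral dose. One group of 3 mice received 250 mg/kg of a compound that the labels name only as CBZ. The other group of 3 received DMSO, a common solvent, by the same route. Cy3-labelled RNA of each liver went onto its own single-colour Agilent array. The labels used here state neither age nor sex. Signal well above background was found at 42.6% to 45.8% of an array's spots, no spot was saturated, and all arrays lay on 1 slide. The 3 DMSO arrays and CBZ replicate 1 lay in row 1 of that slide, and CBZ replicates 2 and 3 in row 2. With 3 arrays per group, precision is limited throughout. All 6 hepatocyte markers listed (Alb, Apoa1, Ttr, Fga, Serpina1a and Hnf4a) were measured and none passed the test. In whole tissue, fewer cells of a type and less RNA per cell cannot be told apart.

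Ribosomal proteins are made in near equal amounts, and most of their mRNAs begin with a terminal oligopyrimidine tract, a C followed by a run of C and T. The kinase mTOR, a sensor of nutrients and growth signals, controls the translation of mRNAs with this tract, so the output of ribosomal proteins can change while the mRNA level stays the same. In liver, a tissue with a high rate of protein synthesis, they are among the most abundant messages. Arrays measure the mRNA level and not its translation.

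The start sites of 6 members are shown because the tract at the first transcribed base is what these genes are known to share. The windows come from RefSeq promoters of the build GRCm38.p6, on the strand of the gene, with 15 bases before the start and 15 from the start base on. Capitals mark the most upstream C within 10 bases of the start that 4 or more pyrimidines follow, together with its run.
Rpl35, chr2:39005117-39005146, minus strand: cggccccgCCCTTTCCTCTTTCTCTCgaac
Rpl38, chr11:114668565-114668594, plus strand: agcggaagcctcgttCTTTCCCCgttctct
Rps6, chr4:86857353-86857382, minus strand: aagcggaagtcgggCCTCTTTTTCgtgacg
Rplp2, chr7:141447636-141447665, plus strand: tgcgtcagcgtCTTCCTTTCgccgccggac
Rpl13a, chr7:45128731-45128760, minus strand: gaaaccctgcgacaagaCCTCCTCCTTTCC
Rpl5, chr5:107900513-107900542, plus strand: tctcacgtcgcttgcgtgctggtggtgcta

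In Rpl38 the run opens at the start base itself, in Rpl13a it lies just after it, and the window of Rpl5 held no such run. Promoters were found for 56 of the 77 genes. In 12 of them (21.4%) the start base was a C followed by 4 or more pyrimidines, against 3.01% of all 27025 genes in the table. Runs that open further upstream and cover the start are included. Such a C stood within 10 bases of the start in 34 (60.7%), against 34.4%. Over the 250 bases before and 50 after the start, read on both strands, the motif CCGGAAG stood in 41.1% of the members and 9.93% of all genes. The motif AAGATGG stood in 16.1% and 7.28%, CACGTG in 10.71% and 8.09%, and TATAAA in 10.71% and 15.7%. On the other strand CCGGAAG itself contains a C followed by 4 pyrimidines, so its count and that of the tract can share bases. These matches describe letters in a window, and no relation to the signals was tested.

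Setting CBZ against DMSO asks whether the ribosomal protein mRNAs differed 2 h after dosing. Fitted differences were small beside those of all probes, and no member passed the test. For each of the 77 genes the probe with the highest mean signal was taken. With the scaling used here its fold change had a 95% confidence interval within 1.5-fold in either direction, but the lowest bound was 0.720-fold and the highest 1.49-fold, just inside that limit. The interval of 1 gene passed the limit with quantile normalisation, those of 14 with slide row as a covariate, those of 65 with array median scaling, where the variance is common to all probes, and those of 2 to 6 when a mouse was left out. In limma's moderated test with Benjamini-Hochberg adjustment over all 22352 probes tested, 0 of the 176 members were called, where 0.0626% of all probes were (0.0537% higher and 0.00895% lower). The smallest adjusted p of a member was 0.426. By the brightest probe of each gene limma called 0 of 77, against 0.0528% of 17057 genes. At an unadjusted p under 0.05, limma had 2 members higher, dim probes of Rpl13 and Rpl21, and 0 lower, where 5.01% and 4.37% of all probes passed in those directions. A log2 fold change beyond 0.2 in either direction was found for 13 members (7.39%) against 30.9% of all probes, and one beyond 0.5 for 0 members against 5.61%. Members were bright, at a median of 135 times the 75th percentile of an array, and the comparison was not matched for brightness. Of the 23 members under 16 times that percentile 30.4% lay beyond 0.2, against 3.92% of the 153 brighter ones.

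**Figure D1:**
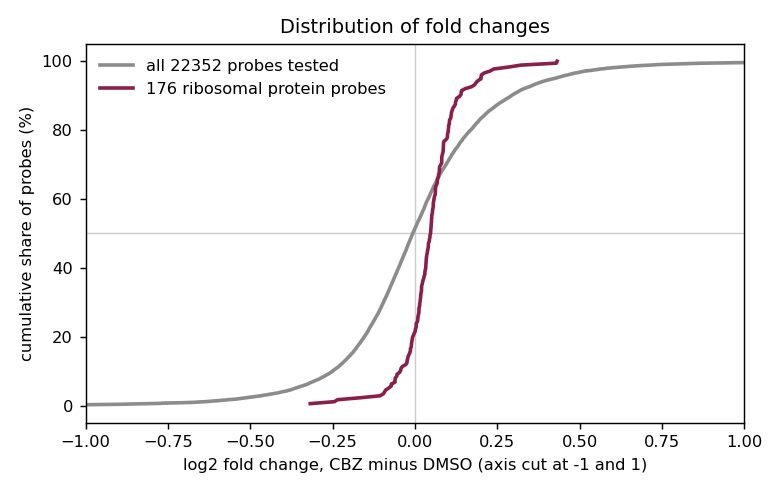
Cumulative share of probes (vertical axis, percent) against the log2 fold change of CBZ minus DMSO (horizontal axis) for the 176 ribosomal protein probes and for all 22352 probes tested. The curve of the ribosomal protein probes is steeper, with its middle 50% between 0.009 and 0.086, and runs from -0.32 to 0.43.

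Small differences leaned to the CBZ side under the scaling used here, and the lean depended on that scaling and on single mice. Of the 176 members 139 (79.0%) were higher in CBZ and 37 lower, against 48.6% higher over all probes, but with each array's median in place of its 75th percentile 37 were higher and 139 lower. The median log2 fold change was 0.048 for the members and -0.006 for all probes. With the array median it was -0.052 for the members, while the median of all probes moved to -0.11, so that the members lay 0.054 above all probes in both cases. Without CBZ replicate 2, 75 members were higher and 101 lower, with a median of -0.013. Without CBZ replicate 3 the counts were 164 and 12, with a median of 0.108. In a fit with slide row as a covariate, where only CBZ replicate 1 shares a row with DMSO mice, 142 were higher and the median was 0.061. By the brightest probe of each gene, 68 of 77 were higher with a median of 0.044, against 49.1% of all genes. Of the 36 genes that the naming rule takes, 18 changed sign with array median scaling and 13 without CBZ replicate 2.

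**Figure D2:**
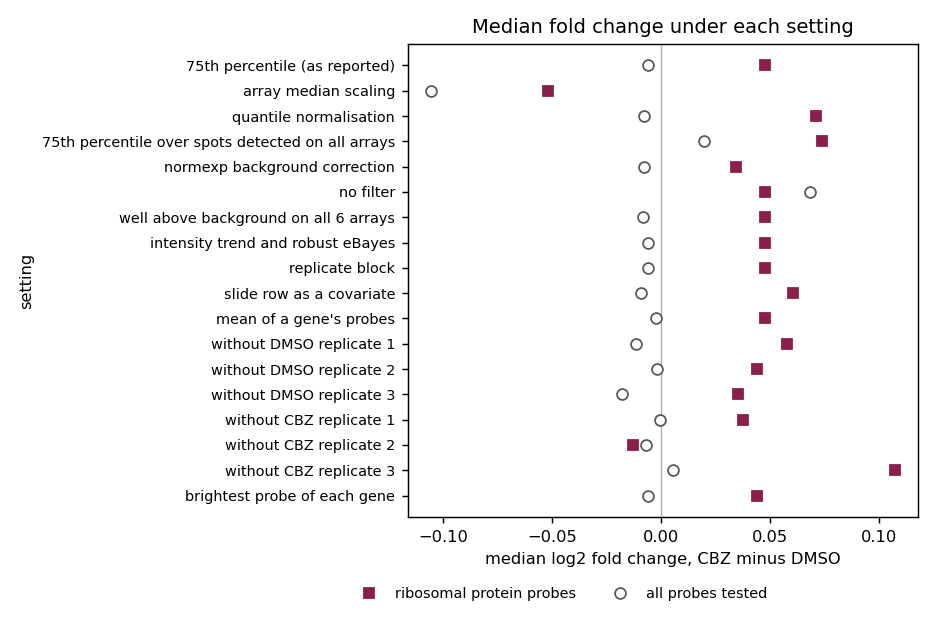
Median log2 fold change of CBZ minus DMSO (horizontal axis) under each processing setting (vertical axis), for the ribosomal protein probes (squares) and all probes tested (circles). The squares lie between -0.052 with array median scaling and 0.108 without CBZ replicate 3.

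The spread of the family lay mainly between the 3 CBZ mice. For each probe the log2 signal was set against the probe's mean over the 6 mice, and the median of these deviations over the 176 members was taken per mouse. It was 0.004, -0.033 and -0.042 in DMSO replicates 1, 2 and 3, and 0.034, 0.138 and -0.099 in CBZ replicates 1, 2 and 3. CBZ replicate 2 therefore stood highest and CBZ replicate 3 lowest of all 6 mice, so that the CBZ group covered the whole range of the DMSO group. CBZ replicate 2 held the highest value for 128 of the 176 probes, and CBZ replicate 3 the lowest for 97. Over all probes tested the median deviations ran only from -0.021 in CBZ replicate 3 to 0.033 in CBZ replicate 2. DMSO replicates 3 and 1 lay close to these ends, at -0.017 and 0.033. The SD of the members' median between mice was 0.025 for DMSO and 0.119 for CBZ (n = 3 each).

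**Figure D3:**
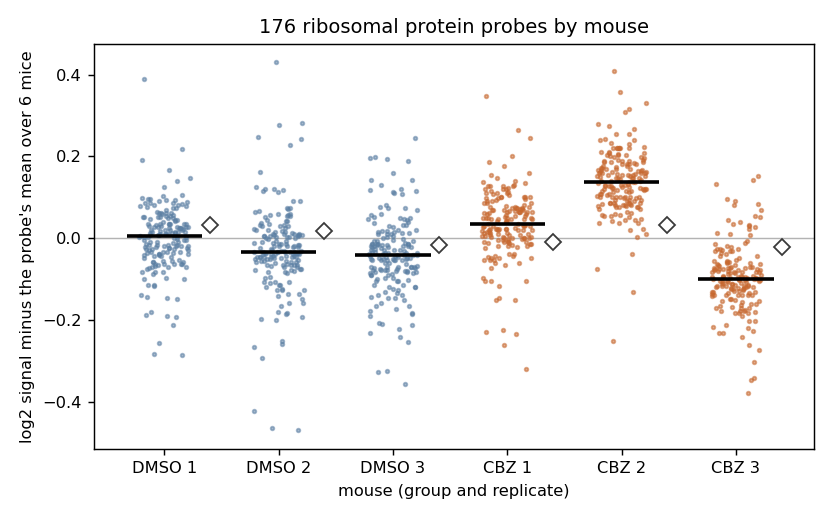
Log2 signal of each of the 176 ribosomal protein probes minus its mean over 6 mice (vertical axis) for each mouse (horizontal axis). Black lines are medians of the ribosomal protein probes and open diamonds those of all probes tested. CBZ replicate 2 lies at 0.138 and CBZ replicate 3 at -0.099, on either side of the 3 DMSO mice.

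Before scaling, the family was nearly level across the mice. The members' median processed signal was 23769, 22506 and 22593 intensity units in DMSO replicates 1, 2 and 3, and 24854, 24240 and 24236 in CBZ replicates 1, 2 and 3. All 3 CBZ medians lay above the 3 DMSO medians, and CBZ replicates 2 and 3 were nearly the same. The 75th percentile by which each array was scaled was 180, 174 and 173 intensity units for DMSO and 184, 158 and 191 for CBZ. It was lowest in CBZ replicate 2 and highest in CBZ replicate 3, the mice in which the scaled members stood highest and lowest. Once the members' own median was subtracted from each mouse, the median SD between mice of 1 group fell from 0.110 to 0.066 on the log2 scale. Some fall is built in, because the median came from the same probes. For all probes tested, without such a subtraction, that SD was 0.188, to be set beside the 0.110.

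**Figure D4:**
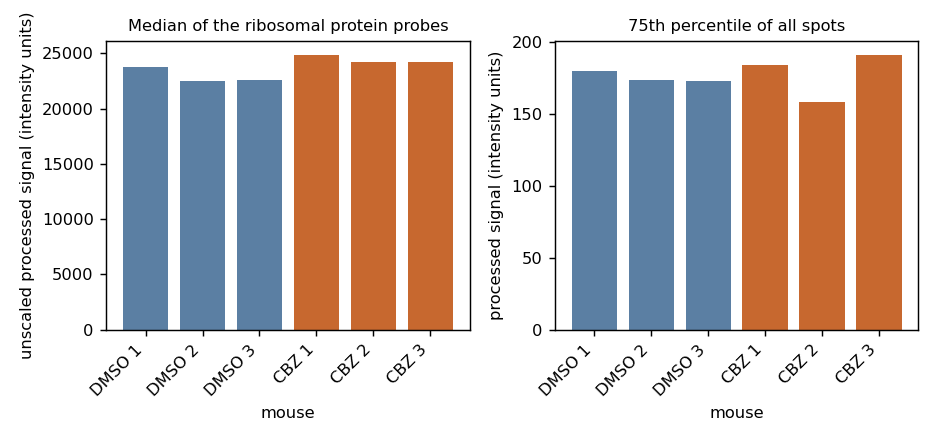
Left, the median unscaled processed signal of the 176 ribosomal protein probes per mouse. Right, the 75th percentile of all non-control spots by which each array was scaled, both in intensity units from 0. The left bars lie between 22506 and 24854, and the right bars between 158 in CBZ replicate 2 and 191 in CBZ replicate 3.

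The medians of both subunits were close. The 110 large-subunit probes had a median log2 fold change of 0.048, with 88 higher and 22 lower, and the 66 small-subunit probes had 0.047, with 51 higher and 15 lower. Groups of CBZ and DMSO values that did not overlap were found for 10 members upward (5.68%) and 1 downward (0.568%), where 6.25% and 7.0% of all probes were of this kind. All 11 were large-subunit probes. By brightest probes 4 of 77 genes were so upward and 0 downward, against 6.27% and 6.65% of all genes. Without CBZ replicate 3 the counts were 79 upward and 1 downward, against 10.8% and 9.3% of all probes, while without CBZ replicate 2 they were 10 and 11, against 12.5% and 15.6%. Leaving out DMSO replicate 1 gave 18 upward (11.9% of all) and 1 downward, where 2462 of 23021 probes were of the latter kind. Leaving out DMSO replicate 3 gave 17 and 5 (12.4% and 19.6%), and leaving out CBZ replicate 1 gave 16 and 2 (12.1% and 9.87%). With array median scaling they were 0 and 0 (2.02% and 4.08%), and with quantile normalisation 27 and 2 (7.86% and 9.6%). The difference between the subunits was not tested.

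The stalk is the flexible arm of the large subunit that recruits translation factors. By brightest probe, the mRNAs of its proteins were nearly the same in both groups. Rplp0, the base of the stalk and a common reference gene in PCR, stood at 394, 393 and 370 times the array's 75th percentile in DMSO and 404, 425 and 365 in CBZ. The CBZ range encloses the DMSO range, and the log2 fold change was 0.04 ± 0.12 (SE, n = 3 mice per group). Rplp1 and Rplp2, the acidic proteins that pair along the stalk, were at 0.004 ± 0.135 and 0.02 ± 0.12. Array median scaling turned all 3 below 0, to -0.055 for Rplp0, -0.095 for Rplp1 and -0.080 for Rplp2.

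Rpl5 and Rpl11 bind the 5S ribosomal RNA, and the particle they form is known to hold back Mdm2, the ubiquitin ligase of p53, when ribosome assembly is disturbed. Rpl5 stood at 28.7, 27.2 and 22.7 times the 75th percentile in DMSO and 27.3, 22.9 and 22.7 in CBZ, and its log2 fold change of -0.11 ± 0.15 was the lowest of the 77 genes. The CBZ values lay within the DMSO range or at its lower edge, and with slide row as a covariate the value turned to 0.068. The brightest probe of Rpl11 was at -0.04 ± 0.13. A dimmer probe of Rpl11 was at 0.21 ± 0.13, with no overlap between the groups.

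By brightest probe, the mRNAs of the 8 proteins at the exit tunnel of the nascent chain and its rim were all higher. Their log2 fold changes were 0.010 to 0.191, with a median of 0.045 and no call. With array median scaling, however, 2 were higher and 6 lower, and without CBZ replicate 2 they divided 4 and 4. Dimmer probes of Rpl26, Rpl23a and Rpl31 lay below 0, at -0.071, -0.022 and -0.008. Rpl4, which reaches into the tunnel wall, stood at 13.6, 14.4 and 15.7 in DMSO and 17.3, 15.9 and 16.6 in CBZ, in multiples of the 75th percentile. Every CBZ value exceeded every DMSO value, and the log2 fold change was 0.19 ± 0.12 (limma's adjusted p = 0.775). Rpl19, Rpl23a, Rpl17 and Rpl39, also of the tunnel region, were at 0.03 ± 0.13, 0.06 ± 0.12, 0.02 ± 0.12 and 0.01 ± 0.13. With array median scaling these 4 turned to -0.065, -0.044, -0.082 and -0.087.

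On the small subunit, Rps2 and Rps3 sit where the mRNA enters. Rps3 stood at 28.3, 25.96 and 21.1 in DMSO and 27.9, 31.2 and 28.6 in CBZ, and Rps2 at 362, 371 and 324 in DMSO and 317, 370 and 306 in CBZ, each in multiples of the 75th percentile. By brightest probe they differed in sign, at 0.23 ± 0.15 for Rps3 and -0.09 ± 0.14 for Rps2, and the groups of both overlapped. The sign of Rps3 depended on the probe, since its 3 probes ran from -0.17 to 0.23. Those of Rps2 ran from -0.092 to -0.043. Where the mRNA leaves, all 4 genes measured (Rpsa, Rps14, Rps26 and Rps28) were higher by brightest probe, by 0.035 to 0.087. However, all 4 were lower with array median scaling and 3 of 4 without CBZ replicate 2. Rpsa, also known as the laminin receptor, was at 0.09 ± 0.14. Rps26 was at 0.05 ± 0.12.

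Rps6, the substrate of the S6 kinases, stood at 224, 211 and 211 times the 75th percentile in DMSO and 222, 261 and 215 in CBZ. CBZ replicate 2 was the highest and the other CBZ mice lay within the DMSO range, and the log2 fold change was 0.10 ± 0.13. Rps27a, which is made as a fusion with ubiquitin, was at 0.05 ± 0.14, with a dimmer probe at 0.20 ± 0.14. A chosen list of 9 members, not all that are known, held genes in which mutations cause Diamond-Blackfan anaemia, a failure of red cell production. Of these 6 were higher and 3 lower, with a median of 0.034, and with array median scaling 2 were higher and 7 lower. Among them Rps19, the gene most often mutated, was at 0.03 ± 0.14 and Rpl35a at -0.02 ± 0.13. By brightest probe the ranges of the 2 groups overlapped for all 9.

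Of the 189 named probes 13 were not members, and 7 of these were well above background on no array. They include all probes of 4 genes, Rpl3l, Rpl39l, Rpl10l and Rps21, while the rest are extra probes of genes that have a brighter one. Rps21, a small-subunit gene, had its probe above background on 2 arrays, 1 of each group. The other 3 genes are close copies best known from other tissues. Rpl3l, the striated muscle copy of Rpl3, was well above background on 0 of 6 arrays, and so was Rpl39l, a copy best known from testis. Rpl10l, another testis copy, had 1 probe on 0 arrays and 1 on 4, of which 1 was a DMSO array and 3 were CBZ arrays. That probe was at 0.17, 0.37 and 0.27 times the 75th percentile in DMSO and 0.32, 0.24 and 0.29 in CBZ, so the CBZ values lay inside the DMSO range (0.14 ± 0.27, limma's adjusted p = 0.963). The broadly expressed partners were measured on all arrays, with Rpl3 at 0.24 ± 0.13, Rpl10 at -0.005 ± 0.119 and Rpl39 at 0.01 ± 0.13. Rps27l, a copy of Rps27 that p53 is known to induce, was a member, at 170, 165 and 155 in DMSO and 151, 184 and 160 in CBZ. Rps27l was at 0.009 ± 0.132 and Rps27 at 0.10 ± 0.13. Rps27l turned to -0.11 with slide row as a covariate and to -0.090 with array median scaling.

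Among the probes that stand for a gene, Rpl13a had the highest log2 fold change. Its protein belongs to the large subunit, and its mRNA is a common reference in PCR. Its sequence is shown because it reads across an exon junction, with 142 bases of genome between its ends, and no base of it is set in capitals.
Rpl13a probe, mm9, chr7:52381388-52381529, minus strand: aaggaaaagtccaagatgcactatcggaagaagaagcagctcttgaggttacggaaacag
This probe stood at 51.1, 49.1 and 59.0 times the 75th percentile in DMSO and 65.2, 66.4 and 61.8 in CBZ. The groups did not overlap, with DMSO replicate 3 nearest to the CBZ mice, and the fold change was 1.22 (log2 0.28 ± 0.13, limma's adjusted p = 0.561). The other probes of Rpl13a were at 0.03 ± 0.12 and -0.01 ± 0.13, with overlapping groups. The other reference genes listed, Rplp0, Rpl19, Rpl32 and Rps18, were at 0.04, 0.03, 0.07 and -0.009.

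Next in order came Rpl3, which lies near the catalytic centre of the large subunit. It stood at 180, 190 and 169 in DMSO and 208, 230 and 198 in CBZ, with no overlap, a fold change of 1.18 and a log2 value of 0.24 ± 0.13 (limma's adjusted p = 0.659). The array design places that probe on chromosome 5 and the gene on chromosome 15. A probe of Rpl3 on chromosome 15 was at 0.14 ± 0.14, with overlapping groups. Rps3, Rps15a, Rpl4 and Rpl38 were also among the 8 highest, at 0.23, 0.20, 0.19 and 0.14. At the other end, below 0 after Rpl5 and Rps2, were Rps3a at -0.06 ± 0.13, Rpl7a at -0.05 ± 0.13, Rpl11, Rpl35a, Rps4x at -0.01 ± 0.15, Rps18 and Rpl10. The groups of all 9 genes below 0 overlapped.

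Probes of 1 gene did not always give the same difference. More than 1 member probe was present for 58 genes, with up to 6, and the median range between a gene's log2 fold changes was 0.088. In 34 genes the probes lay within 0.1 of each other, and in 8 they lay over 0.2 apart (Rpl21, Rps3, Rpl13, Rpl13a, Rpl7, Rps24, Rpl11 and Rplp0). Of the 23 members dimmer than 16 times the 75th percentile, 7 had a difference beyond 0.2, against 6 of the 153 brighter members. The largest member difference of all was on such a dim probe, of Rpl13, on chr8:125629070-125629129 of mm9. It stood at 1.02, 0.90 and 1.24 in DMSO and 1.54, 1.42 and 1.27 in CBZ, with a log2 fold change of 0.43 ± 0.16 (limma's adjusted p = 0.426). The brighter probes of Rpl13 were at 0.06 ± 0.13 and 0.07 ± 0.13.

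**Figure D5:**
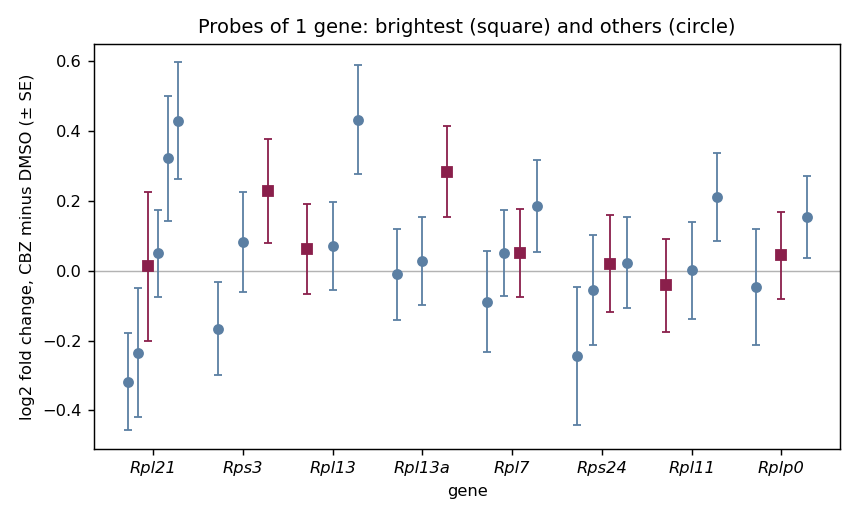
Log2 fold change of CBZ minus DMSO with its moderated standard error (vertical axis) for each member probe of the 8 genes whose probes lay over 0.2 apart (horizontal axis). Squares mark the brightest probe of a gene. The 6 probes of Rpl21 run from -0.32 to 0.43, on either side of its brightest probe at 0.01.

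Rpl21, a large-subunit protein, had the widest range, 0.747. A group of 3 of its probes match nearly the same stretch at the end of the message, and the same 30 bases of each are shown because a few letters set them apart. Capitals mark the bases that differ from the brightest probe, and the substitutions count from 1 at the first base shown.
Rpl21 brightest probe, mm9, within chr2:173745815-173745874, minus strand: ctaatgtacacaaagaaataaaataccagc
Rpl21 second probe, mm9, within chr2:173745818-173745877, minus strand: cCaatgGacacaaagaaataaaataccagc
Rpl21 chromosome 8 probe, mm9, within chr8:22231509-22231568, plus strand: ctaatgtacacaaagaaataaaGtaccagT
In the bases shown, the second probe differs by T2C and T7G and the chromosome 8 probe by A23G and C30T. Over its whole overlap of 58 bases with the brightest probe, the chromosome 8 probe differs by 3. Neither chromosome is that of the gene, which lies on chromosome 5. The brightest probe stood at 85.2, 94.5 and 64.3 in DMSO and 67.4, 107.1 and 73.7 in CBZ, which is full overlap (0.01 ± 0.21). The second stood at 2.67, 2.35 and 3.503 in DMSO and 3.67, 4.05 and 3.61 in CBZ, without overlap (0.43 ± 0.17, limma's adjusted p = 0.464). The chromosome 8 probe stood at 2.36, 1.98 and 3.13 in DMSO and 2.98, 3.29 and 2.915 in CBZ, with overlap (0.32 ± 0.18). In all 3, DMSO replicate 3 lay at the far end of the DMSO mice, lowest on the brightest probe and highest on the others. A dim probe on chr5:147647577-147647636 was the only member below 0 without overlap, at 0.40, 0.44 and 0.41 in DMSO and 0.34, 0.38 and 0.29 in CBZ (-0.32 ± 0.14, limma's adjusted p = 0.533).

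Similar pairs were found in Rplp0 and Rpl7a, and their letters are shown to let the probes be told apart. Capitals again mark the bases that differ from the first of each pair.
Rplp0 brightest probe, mm9, within chr5:116013404-116013463, plus strand: tcggaggaatcagatgaggatatgggattt
Rplp0 second probe, mm9, within chr5:116013397-116013456, plus strand: tcAgTggaatcagatgagAatatgggattC
Rpl7a first probe, mm9, within chr2:26768759-26768818, plus strand: ttgggttaaatgtatgctgaattttctgta
Rpl7a second probe, mm9, within chr2:26768759-26768818, plus strand: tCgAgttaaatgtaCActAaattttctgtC
In the 30 bases shown, the second Rplp0 probe differs by G3A, A5T, G19A and T30C, and over the whole overlap of 53 bases it differs by 5. It stood at 84.2, 84.9 and 87.0 in DMSO and 97.3, 96.0 and 91.8 in CBZ, without overlap, and had the smallest SD between mice of 1 group of all members, 0.035 (0.15 ± 0.12). The second Rpl7a probe differs by T2C, G4A, T15C, G16A, G19A and A30C, although the array design gives both the same place. They were at -0.08 ± 0.16 and 0.08 ± 0.17, with overlap in each. Over the whole family 24 pairs of probes of 1 gene overlapped in sequence, in 19 genes, and 21 of these pairs held differing bases. The median difference within a pair was 0.039 for these and 0.056 for the 3 pairs without a differing base. Members on another chromosome than their gene numbered 27, in 17 genes, and had a median log2 fold change of 0.040 against 0.048 for the other 149. Near-identical copies are common for these genes, so a probe's signal can come from more than 1 locus and its assignment to the named gene is uncertain.

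Spread between mice of 1 group was also compared along the family. The brightest probes with the smallest residual SD were those of Rpl10 (0.054), Rpl17 (0.061), Rpl23a (0.068), Rplp2 (0.075) and Rps26 (0.080). Those with the largest were Rpl21 (0.323), Rps4x (0.177), Rps3 (0.166), Rpl5 (0.164) and Rps15a (0.148). Rpl10, whose protein helps to shape the catalytic centre, stood at 726, 722 and 702 in DMSO and 697, 756 and 691 in CBZ. These ranges overlap, and CBZ replicate 2 was again the highest. The probe of Rps4x that stands for the gene is placed on chromosome 18, while the gene lies on X.

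Genes around the ribosome were read from lists chosen together with the members, and 0 of their genes were called. Other mRNAs known to carry the pyrimidine tract, such as elongation factors, had 11 of 22 higher and 11 lower, with a median of 0.009. Their median deviation was 0.029, 0.163 and -0.138 in CBZ replicates 1, 2 and 3, the same order as in the ribosomal proteins, and -0.081 to 0.028 in DMSO. Hnrnpa1, which encodes an RNA-binding protein, was at 0.39 ± 0.15 and Ipo7, a nuclear import receptor, at -0.27 ± 0.15. Mitochondrial ribosomal proteins, which belong to the separate ribosome of mitochondria, had 33 of 76 higher and 43 lower, with a median of -0.020. Their median deviations had the same order, at -0.031, 0.094 and -0.078 in CBZ replicates 1, 2 and 3. Mrpl19 and Mrps2, both of this list, were at 0.30 ± 0.14 and 0.29 ± 0.13. Chaperones of ribosomal proteins had 5 of 7 higher, with Ltv1, of small-subunit assembly, at 0.36 ± 0.15 and Grwd1 at 0.31 ± 0.17. Fau, which encodes a ribosomal protein fused to a ubiquitin-like protein but lacks an Rp name, was at 0.002 ± 0.133.

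In the mTOR and S6 kinase pathway 5 of 18 measured genes were higher and 13 lower, with a median of -0.042. Ddit4, a stress-induced inhibitor of mTOR complex 1, stood at 37.9, 28.6 and 42.8 times the 75th percentile in DMSO and 47.4, 132 and 198 in CBZ. The CBZ values were all higher and spread widely, at 1.58 ± 0.45 (limma's adjusted p = 0.302). Eif4ebp2, which encodes a repressor of cap-dependent translation that mTOR inactivates, stood at 29.5, 31.4 and 27.8 in DMSO and 21.95, 23.9 and 24.2 in CBZ. All 3 CBZ values were lower, at -0.34 ± 0.12 (limma's adjusted p = 0.428).

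Cell type markers differed in how they ran across the CBZ mice, and 0 of them were called. The family stood highest in CBZ replicate 2 and lowest in CBZ replicate 3. The medians of the stellate and endothelial markers had that order among the CBZ mice, but not every single marker did. Col1a1, Col3a1 and Reln of the stellate list and Stab2, Clec4g and Oit3 of the endothelial list had it. Dcn, Lrat and Kdr were lowest in CBZ replicate 1, and Pecam1 in CBZ replicate 2. The 5 stellate cell and fibroblast markers, all measured, had median deviations of 0.027, 0.411 and -0.263 in CBZ replicates 1, 2 and 3. In DMSO replicates 1, 2 and 3 these were -0.154, -0.127 and 0.006. Their summed level ran from 102 to 116 times the 75th percentile in DMSO. In CBZ replicates 1, 2 and 3 it was 87.4, 151 and 116, so the sum, unlike the median, was lowest in CBZ replicate 1. The 5 endothelial markers, all measured, were at -0.021, 0.190 and -0.158, with sums of 59.6 to 94.2 in DMSO and 66.5 to 86.0 in CBZ. In DMSO replicates 1, 2 and 3 they were at 0.270, 0.012 and -0.364, so the extremes of the 6 mice were DMSO replicates 1 and 3. Other lists had other orders. The 6 hepatocyte markers were at -0.059, 0.080 and -0.022, lowest in CBZ replicate 1, with sums of 3892 to 4125 in DMSO and 3923 to 4411 in CBZ. Kupffer cell and macrophage markers (7 of 7 measured) were at 0.204, -0.052 and -0.114, B cell markers (3 of 5) at 0.349, 0.149 and -0.144, and T and NK cell markers (3 of 5) at 0.138, -0.101 and -0.003. Erythroid markers (4 of 4) were at 0.356, -0.348 and -0.175, neutrophil markers (3 of 4) at 0.130, -0.092 and 0.097, and cholangiocyte markers (2 of 4) at 0.320, -0.099 and -0.244. DMSO mice held both extremes of the 6 mice for Kupffer cell and macrophage (0.593 and -0.421) and neutrophil markers (0.877 and -1.33). They also held the highest value for erythroid (0.585) and cholangiocyte markers (0.435), and the lowest for B cell (-0.453) and T and NK cell markers (-0.130). The part of these cell types in the family's values was not tested.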

How the data were processed

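Liver RNA of 6 mice, 3 per group by the labels, was measured with 1 array each. Scans were read by the authors with Agilent Feature Extraction, named in the submitters' processing notes, at version 10.7.3.1 with the protocol GE1_107_Sep09 per the file headers. Each deposited processed intensity had its background subtracted and was detrended inside its array by that software, as the headers state. The authors' deposited table holds this intensity as a ratio to the array median, as division of the scanner values showed. Control spots and outlier spots (114 to 126 per array) were left out. The log2 intensity minus the array's 75th percentile was averaged over spots of 1 probe. The 22352 probes well above background on all 3 arrays of a group were fitted with limma 3.58.1 in R 4.3.3 (lmFit, eBayes, two-sided, no covariate, Benjamini-Hochberg over all, threshold 0.05). The fit was tested on simulated data. Errors are moderated SEs. Accessions of 156 members matched RefSeq, 154 of them with the same symbol. Probe coordinates are those of the design, on mm9.

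The members, gene lists and the rule for named genes were chosen with earlier results of these data known. Named were called members, the 8 highest and 8 lowest genes by brightest probe, the 5 most and 5 least variable, the 6 whose probes differed most, 23 in any case (Rps4l has no probe), and 2 per neighbour list. Some genes that the rule takes are not reported here. Alternatives covered scaling, background, filter, variance model, slide row, replicate number as a block, threshold, gene means and leaving out each mouse. Scaling on the members' median and the brightest probe alone were added after seeing the data. Same-numbered mice did not deviate together in all 3 pairs (r = -0.24, 0.016 and 0.18), so the numbers were not taken as pairs.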

Additional observations from a re-analysis of the deposited data

How the results depend on the processing

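No member probe was called under any alternative. Over all probes 14 were called as reported, 131 with array median scaling and with the authors' table (both with 89408 degrees of freedom, so with a variance common to all probes), 7 with quantile normalisation, 6 with the percentile over spots detected on all arrays, 130 with normexp, 0 without a filter, 43 with a filter on all 6 arrays, 174 with an intensity trend and robust eBayes, 7 with slide row as a covariate, 58 at an adjusted p under 0.10, 0 with scaling on the members' median, and 0 to 33 when a mouse was left out. With replicate number as a block, which pairs no mice here, 10 were called and no member. Members without overlap between groups numbered 11 as reported, 0 with array median scaling and the authors' table, 29 with quantile normalisation, 22 with scaling on the members' median (4 upward and 18 downward, where 694 and 3304 of 22352 probes were), 2 by gene means (both upward, where 1081 of 17057 genes were), 4 by brightest probes (of 77 genes in both), and 14 to 80 when a mouse was left out. The 14, without DMSO replicate 2, were 12 upward and 2 downward, where 1804 and 2048 of 22636 probes were. The members' median log2 fold change turned to -0.052 with array median scaling and the authors' table and to -0.029 with scaling on the members' median, and lay between -0.013 (without CBZ replicate 2) and 0.108 (without CBZ replicate 3) when a mouse was left out. Of the 36 named genes none was called in any setting, and those that changed sign follow. Under both array median scaling and the authors' table they were 18, at -0.038 for Rpl13, -0.082 for Rpl17, -0.065 for Rpl19, -0.087 for Rpl21, -0.044 for Rpl23a, -0.025 for Rpl32, -0.087 for Rpl39, -0.049 for Rpl7, -0.055 for Rplp0, -0.095 for Rplp1, -0.080 for Rplp2, -0.065 for Rps19, -0.079 for Rps24, -0.050 for Rps26, -0.00021 for Rps27, -0.051 for Rps27a, -0.090 for Rps27l and -0.013 for Rpsa. Scaling on the members' median turned 16, to -0.015 for Rpl13, -0.060 for Rpl17, -0.043 for Rpl19, -0.064 for Rpl21, -0.021 for Rpl23a, -0.0022 for Rpl32, -0.065 for Rpl39, -0.027 for Rpl7, -0.033 for Rplp0, -0.073 for Rplp1, -0.058 for Rplp2, -0.043 for Rps19, -0.057 for Rps24, -0.028 for Rps26, -0.029 for Rps27a and -0.068 for Rps27l. Gene means turned 6, to 0.034 for Rpl10, 0.057 for Rpl11, 0.050 for Rpl35a, 0.015 for Rpl7a, 0.033 for Rps18 and -0.064 for Rps24. Slide row turned 5, to -0.253 for Rpl21, 0.068 for Rpl5, 0.061 for Rps18, -0.112 for Rps27l and 0.048 for Rps4x. The percentile over spots detected on all arrays turned 4, to 0.022 for Rpl10, 0.0023 for Rpl35a, 0.017 for Rps18 and 0.015 for Rps4x. Quantile normalisation turned 2, to 0.017 for Rpl10 and 0.028 for Rps18, and normexp 2, to -0.0095 for Rplp1 and -0.0015 for Rps27l. When a mouse was left out, the log2 fold change crossed 0 in 20 genes, with values of -0.046 to 0.019 for Rpl10, -0.134 to 0.024 for Rpl11, -0.013 to 0.118 for Rpl13, -0.021 to 0.056 for Rpl17, -0.033 to 0.109 for Rpl19, -0.189 to 0.146 for Rpl21, -0.088 to 0.048 for Rpl35a, -0.043 to 0.104 for Rpl39, -0.0021 to 0.111 for Rpl7, -0.0041 to 0.105 for Rplp0, -0.077 to 0.095 for Rplp1, -0.032 to 0.072 for Rplp2, -0.061 to 0.078 for Rps18, -0.036 to 0.107 for Rps19, -0.068 to 0.110 for Rps24, -0.050 to 0.130 for Rps27a, -0.072 to 0.070 for Rps27l, -0.133 to 0.0052 for Rps3a, -0.105 to 0.094 for Rps4x and -0.0025 to 0.149 for Rpsa. The cause was not tested, except that array median scaling moves all probes by the same amount per array. Dim probes and 3 mice per group limit what single probes can show.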
